A study of Bos taurus with 18 samples.

Results

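The genes described here are 40 named antioxidant, glutathione and iron storage genes of the rumen lining, listed by symbol and grouped by enzyme class. They were chosen by name, with earlier results of these data known. Of these symbols 39 had a row in the count table of 27270 genes. GPX2 was not analysed here, and GSTP1 had a pair of rows, so 40 rows were followed, and all 40 passed the filter on low counts. RNA was sequenced from biopsies of rumen papillae, the small absorptive outgrowths of the wall of the forestomach, of 9 non-lactating Holstein cows with a rumen cannula. Each cow was biopsied on a diet of 100% forage and again after a change to a high-grain diet with 65% concentrate. Forage_control and grain_control are the libraries of 5 control cows (n = 5 each), and forage_PHY and grain_PHY those of 4 cows given a supplement that the labels call PHY without spelling it out (n = 4 each). The labels do not say whether PHY was fed at the forage biopsy, they give no age, and they tie no library to a cow. Library numbers within a group follow the order of deposit.

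Cells make superoxide and hydrogen peroxide during respiration, and a layered enzyme system removes them. Superoxide dismutases turn superoxide into hydrogen peroxide. Catalase, glutathione peroxidases and peroxiredoxins then reduce the peroxide, drawing on glutathione, on thioredoxin and finally on NADPH from the pentose phosphate pathway. Many of these genes are switched on by the transcription factor NRF2 (gene NFE2L2), which its partner KEAP1 holds down by marking it for degradation until oxidants or reactive plant compounds modify KEAP1. Ferritin stores iron in a form that cannot feed the formation of hydroxyl radicals. The rumen epithelium is a stratified squamous epithelium that takes up and oxidises the short-chain acids of fermentation.

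Depth moved with diet, and so did the composition of the libraries. Totals ran from 15808999 to 34471682 reads on forage and from 3953060 to 23949058 on grain, with the lowest in grain_PHY 1. Reads on 144 genes of olfactory receptors, silent in most tissues, ran from 16.3 to 65 CPM (read counts scaled to the library total) on forage and from 32.9 to 345 on grain. The labelled tissue was checked on 15 markers of stratified squamous epithelium such as KRT5, DSP and TP63, all of them detected in every library. Their summed level ran from 12670 to 33120 CPM in forage_control, 21980 to 25050 in forage_PHY, 7834 to 24410 in grain_control and 6493 to 20900 in grain_PHY. On grain 7 of the 15 fell and 1 rose, with a median log2 change of −0.60. Of 20 leukocyte markers 6 rose and 0 fell, and of 9 tested red blood cell markers 4 rose and 0 fell, beside 18.1% of all genes called higher and 13.8% lower. Of all genes of 1 to 10 CPM 2889 of 9598 were called higher. Falls were common among well-expressed genes, called in 49.1% of those of 30 to 100 CPM and 51.5% of those of 100 to 1000 CPM. The median log2 changes in these ranges were −0.47 and −0.57. The 10 red cell markers together stood at 2.49 to 14.9 CPM in forage_control and 2.88 to 8.8 in forage_PHY, against 7.76 to 30.3 in grain_control and 11.5 to 34.8 in grain_PHY, and 5 of them, the globins HBA and HBB included, were at 0 in some libraries. Fibroblast and endothelial markers had 0 calls of 10 and 0 of 8. The leukocyte sum includes S100A8, S100A9 and S100A12, which stratified epithelium also makes, and ran from 1630 to 4361 CPM in forage_control, 2115 to 4235 in forage_PHY, 1521 to 4575 in grain_control and 1294 to 2878 in grain_PHY. The part of cell makeup in the results below was not tested, and values that bear on depth are given after the counts. In bulk tissue fewer cells of a type and less RNA per cell cannot be told apart.

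The first comparison asked how these genes responded to the move from forage to grain, averaging control and PHY cows. Regulators, peroxide-reducing enzymes, glutathione genes and ferritin chains were among the rows called lower on grain, and none was called higher. Of the 40 rows 21 fell and 0 rose, called at an adjusted p under 0.05 in edgeR's quasi-likelihood test with Benjamini-Hochberg adjustment over all 22202 genes tested. That is 52.5% of the rows, whereas 13.8% of all genes tested were called lower, 18.1% higher and 31.9% in either direction. The log2 fold changes of the called rows lay between −0.93 and −0.49, a fall of 1.41- to 1.9-fold. Over all 40 rows the median log2 fold change was −0.54 and 35 were negative, beside a median of 0.20 over all genes, of which 44% were negative. The forage and grain libraries overlapped in every row: in 0 of 40 did the 9 grain libraries all lie below the 9 forage libraries (0.153% of all genes) and in 0 did they all lie above them (0.054%).

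**Figure D1:**
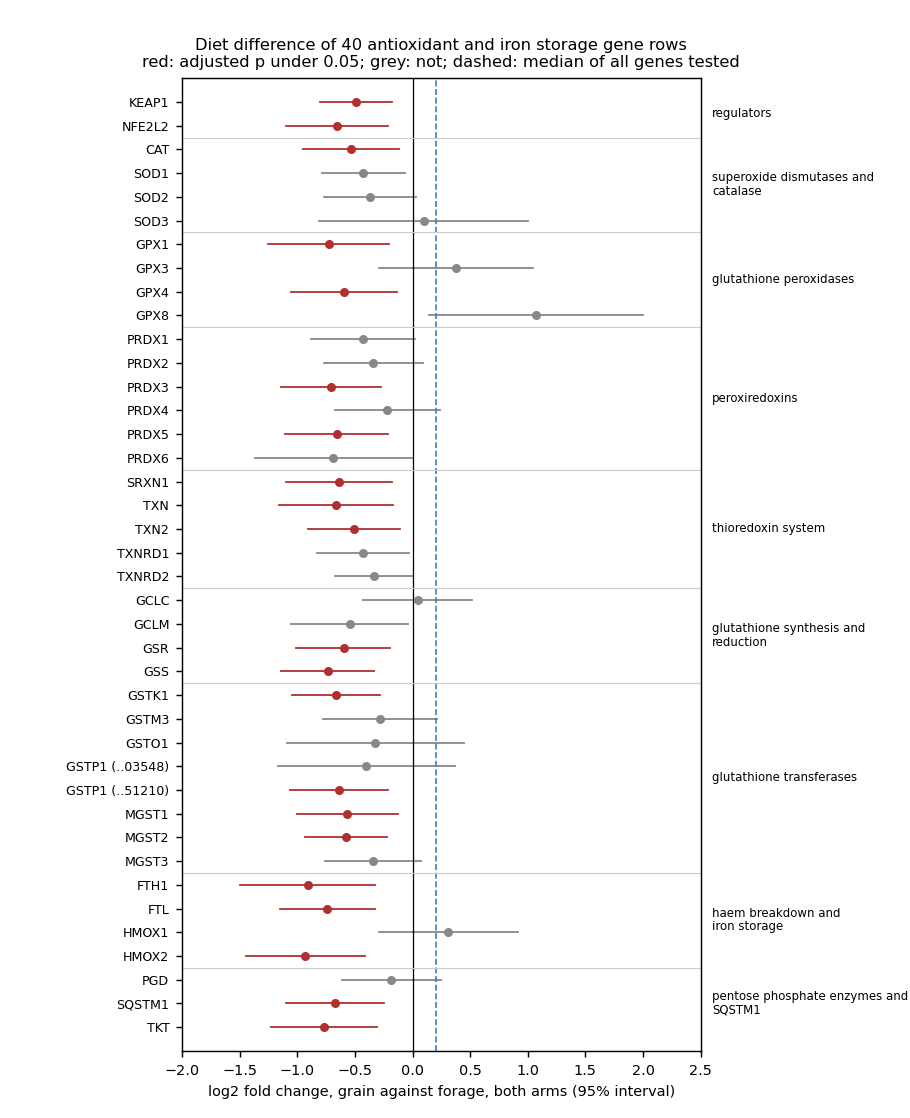
Log2 fold change of grain against forage over both arms (horizontal axis) for each of the 40 rows, grouped by enzyme class, with its 95% interval. Red marks the 21 rows with an adjusted p under 0.05, all left of 0. The dashed line is the median of all genes tested, 0.20.

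The diet difference of any gene went with its level, and most of the antioxidant genes are well expressed. Among all genes averaging 10 CPM or more, 37.2% were called lower and 1.54% higher, with a median log2 fold change of −0.40. Of the antioxidant rows, 32 lay in that range, and 20 of them were called lower, with a median of −0.59. Between 10 and 30 CPM 3 of 6 rows were called lower beside 28.6% of all genes, with medians of −0.52 and −0.33. Between 30 and 100 CPM the share was 9 of 15 rows beside 49.1% of all genes, and between 100 and 1000 CPM 8 of 10 beside 51.5%. The medians were −0.64 and −0.47 in the former range and −0.63 and −0.57 in the latter. Among all genes of 1 to 10 CPM the median was 0.62, and the 8 antioxidant rows of that range had a median of −0.09 with 1 called.

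**Figure D2:**
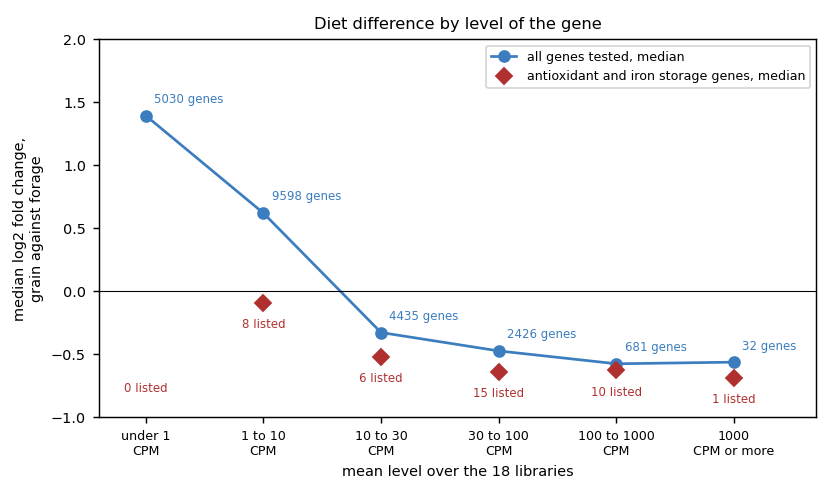
Median log2 fold change of grain against forage (vertical axis) by mean level of the gene over the 18 libraries (horizontal axis), for all genes tested (blue line) and for the antioxidant and iron storage rows in the same range (red diamonds). Both lie below 0 from 10 CPM upwards, and the red points lie below the blue ones there.

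The calls did not hold without the shallowest libraries or with a covariate that tracks them. With the log2 olfactory receptor CPM of each library as a covariate 0 of the 40 rows passed, their median log2 fold change was 0.07, and of the 21 called rows 8 changed sign, to values between 0.0064 and 0.155. Without grain_PHY 1, the library of lowest depth, 0 rows passed and the 21 log2 fold changes lay between −0.75 and −0.39, with a smallest adjusted p of 0.063. Fitted without the 3 libraries of lowest total (grain_PHY 1, grain_control 1 and grain_control 4), the 21 stood at −0.63 to −0.24, with 0 passing. When only genes averaging 30 CPM or more, here computed on total reads before TMM scaling, were tested and scaled on each other, 0 of the 25 rows tested passed (18 of the 25 were negative), and their median was −0.17 beside −0.01 over those genes. The count of 21 fell to 5 without forage_PHY 1, to 8 without forage_PHY 2 or forage_control 5, to 10 without grain_control 1 or grain_control 4, to 11 without forage_control 4 and to 13 without forage_PHY 3. Calls over all genes, 7091 with every library, moved too, and their range is given with the processing below. The losses were thus not limited to these rows.

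Both regulators were lower on grain, beside 13.8% of all genes and 37.2% of those averaging 10 CPM or more. NFE2L2 stood at 144, 106, 106, 169.9 and 175 CPM in forage_control, 158, 154, 143 and 129 in forage_PHY, 46.8, 100.0, 122, 81.3 and 130.3 in grain_control and 40.6, 98.9, 83.8 and 122 in grain_PHY. It fell from 143 ± 25.1 to 91.7 ± 32.1 CPM (SD, n = 9 each), a log2 fold change of −0.65 ± 0.21 (SE, edgeR adjusted p = 0.031). Every grain library was below the forage median, and 6 of 9 lay below the lowest forage library, with grain_control 1 and grain_PHY 1 lowest of all. How many of all genes had such an order was not counted, here or for the genes below. KEAP1 read 28.4, 23.8, 20, 30.3 and 39.2 CPM in forage_control, 33.5, 34, 30.5 and 27.7 in forage_PHY, 16.6, 22.6, 22.2, 17.4 and 26.4 in grain_control and 19.3, 16.3, 24.4 and 25.6 in grain_PHY. KEAP1 fell by 0.49 ± 0.15 on the log2 scale (adjusted p = 0.026), from 29.7 ± 5.68 to 21.2 ± 3.92 CPM. It varied least of the 40 rows across the 18 libraries, 2.4-fold from the lowest to the highest. Without any 1 of 7 libraries NFE2L2 lost its call, and KEAP1 did so without any 1 of 4. These were forage_control 5, forage_PHY 1, forage_PHY 2 and grain_PHY 1 for both, and forage_control 4, grain_control 1 and grain_control 4 for NFE2L2 only.

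**Figure D3:**
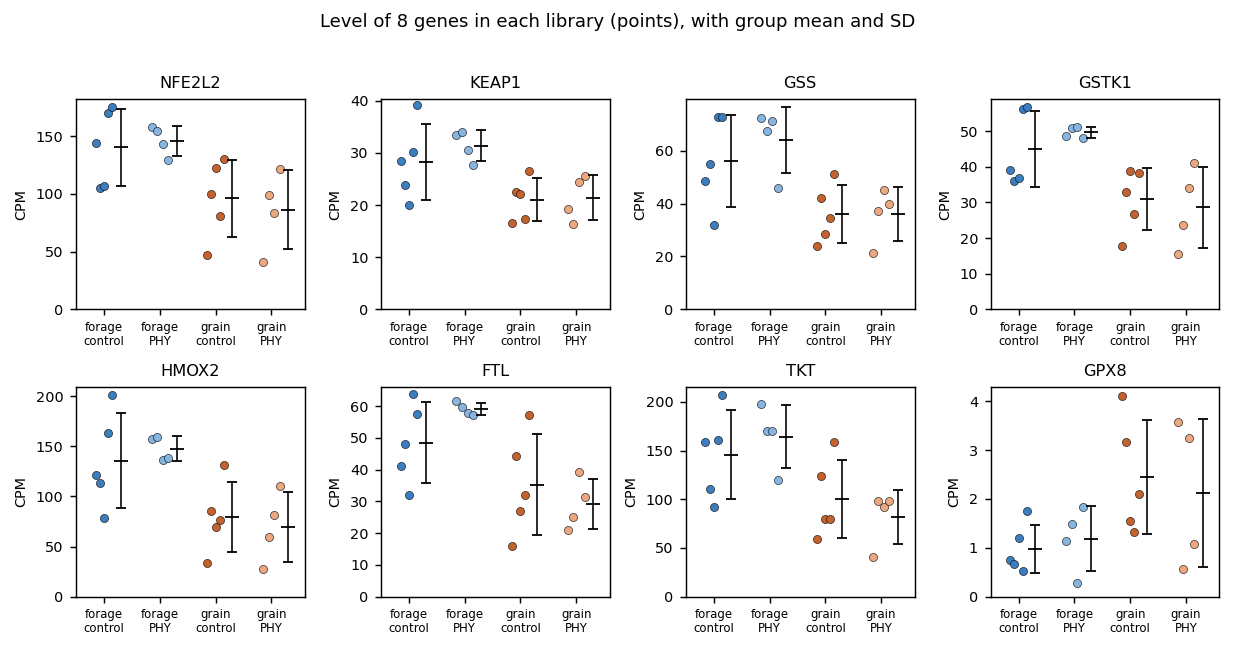
Level in CPM (vertical axes, from 0) of 8 genes in each of the 18 libraries, by group, with the group mean and SD beside the points. In all but GPX8 the grain groups sit lower on average than the forage groups while single libraries overlap, and GPX8 shows the opposite order.

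Of the enzymes that act first on superoxide and peroxide, catalase fell and the dismutases did not pass. Among all genes 13.8% were called lower, and 51.5% of those of 100 to 1000 CPM, where CAT lay. The 95% intervals of CAT (−0.95 to −0.12) and SOD1 (−0.79 to −0.07) overlapped, so the calls do not set these genes apart. CAT, which splits hydrogen peroxide in peroxisomes, was lower in all 9 grain libraries than the forage median. CAT stood at 133, 109.8, 127, 173 and 167 CPM in forage_control, 169.8, 201, 174 and 158 in forage_PHY, 70.8, 141, 123, 82.5 and 164 in grain_control and 51.3, 104, 121 and 132 in grain_PHY. The forage libraries held 109.8 to 201 CPM and the grain libraries 51.3 to 164, so that the groups overlapped, and CAT fell (−0.54 ± 0.20 on the log2 scale, edgeR adjusted p = 0.045). SOD1, the copper-zinc dismutase of the cytosol, was lower in every grain library than the forage median but did not pass (−0.43 ± 0.18, adjusted p = 0.06). SOD1 stood at 22.5, 30, 19.7, 44.5 and 35.8 CPM in forage_control, 42.2, 38.2, 41.5 and 37.2 in forage_PHY, 16.6, 29.5, 24.6, 23 and 28.2 in grain_control and 16, 27, 34.9 and 31.9 in grain_PHY. The mitochondrial manganese enzyme SOD2 was at −0.37 ± 0.19 (adjusted p = 0.12), and its libraries ran from 27.4 to 64.9 CPM on forage (median 55.3) and 21.6 to 63 CPM on grain (median 40.9). SOD3, the dismutase secreted outside the cell, was sparse and uneven. SOD3 stood at 0.528, 2.81, 1.2, 0.409 and 2.33 CPM in forage_control, 2.98, 3.12, 0.664 and 1.1 in forage_PHY, 0.846, 1.56, 1.6, 1.47 and 1.17 in grain_control and 1.08, 3.99, 1.86 and 2.95 in grain_PHY. Its values overlapped across all 4 groups and its diet difference was 0.10 ± 0.44 (adjusted p = 0.86). The CAT call was lost without any 1 of 13 libraries, which were forage_control 1, 4 and 5, all of forage_PHY, grain_control 1 to 4 and grain_PHY 1 and 2.

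Of the 4 glutathione peroxidases 2 fell and 2 did not pass. Of all genes 13.8% were called lower, and 37.2% of those averaging 10 CPM or more. GPX1, the abundant selenium enzyme of the cytosol and mitochondria, fell by 0.73 ± 0.26 on the log2 scale (edgeR adjusted p = 0.037). It ran from 49.1 to 183 CPM on forage (median 93.8) and 30 to 123 CPM on grain (median 51.7). GPX4, which reduces peroxidised membrane lipids and so guards against ferroptosis, fell by 0.59 ± 0.22 on the log2 scale (adjusted p = 0.046), from 29.1 ± 10 to 19.7 ± 7.7 CPM (SD, n = 9 each). GPX3, the secreted plasma form, stood at 1.51 to 6.58 CPM on forage (median 3.4) and 2.88 to 10.3 CPM on grain (median 3.43), a difference of 0.38 ± 0.32 that did not pass (adjusted p = 0.33). GPX8, a form of the endoplasmic reticulum, was the only row with a log2 fold change above 0.38. GPX8 stood at 0.754, 0.657, 1.2, 0.531 and 1.74 CPM in forage_control, 1.14, 1.5, 0.277 and 1.83 in forage_PHY, 4.11, 3.17, 1.55, 1.32 and 2.1 in grain_control and 3.57, 0.557, 3.25 and 1.08 in grain_PHY. Its mean was 1.07 ± 0.55 CPM on forage and 2.3 ± 1.26 on grain (1.07 ± 0.45, adjusted p = 0.065), with the lowest grain library, in grain_PHY, inside the forage range. It passed with DESeq2 (1.18 ± 0.43, adjusted p = 0.021), with limma voom (1.16 ± 0.42, 0.028) and without grain_PHY 2 (1.22 ± 0.44, edgeR adjusted p = 0.049). Without any 1 of 11 libraries GPX1 lost its call, and GPX4 did so without any 1 of 13. For both these were forage_control 4 and 5, forage_PHY 1, 2 and 3, grain_control 1, 2, 3 and 4 and grain_PHY 1 and 3, and for GPX4 also forage_control 1 and grain_PHY 2.

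Peroxiredoxins reduce peroxides with electrons from thioredoxin, and 2 of the 6 fell. Of all genes averaging 10 CPM or more, as these do, 37.2% were called lower. PRDX3, the form of mitochondria, fell by 0.71 ± 0.21 on the log2 scale (edgeR adjusted p = 0.024), from 109.5 ± 28.4 to 67.6 ± 22.3 CPM (SD, n = 9 each). PRDX5, found in mitochondria, peroxisomes and the cytosol, fell from 231 ± 51.5 to 148 ± 51.3 CPM (−0.66 ± 0.22, adjusted p = 0.032). PRDX6, which reduces phospholipid peroxides, had the widest range in CPM of the class. It ran from 539 to 3614 CPM on forage (median 1390) and 535 to 2017 CPM on grain (median 964), and its difference of −0.69 ± 0.33 did not pass (adjusted p = 0.098). The cytosolic enzymes PRDX1 (−0.43 ± 0.22, adjusted p = 0.11) and PRDX2 (−0.34 ± 0.21, adjusted p = 0.18) did not pass either. PRDX1 ran from 82.5 to 163 CPM on forage (median 134) and 49.8 to 143 CPM on grain (median 85.4). PRDX2 stood at 80.3, 45.2, 55.4, 102 and 111 CPM in forage_control, 92.6, 98.8, 89.5 and 76.9 in forage_PHY, 44.5, 98.8, 60.5, 51.5 and 117 in grain_control and 42.4, 60.6, 60 and 73.6 in grain_PHY. PRDX2 is also abundant in red blood cells, whose part in its level was not tested. Of red cell markers 4 of 9 tested rose on grain, beside 18.1% of all genes. PRDX4 stood at 10.3, 7.53, 5.27, 11.9 and 12.9 CPM in forage_control, 13.9, 14.7, 10.3 and 12.4 in forage_PHY, 10, 12.6, 9.06, 8.87 and 15.2 in grain_control and 2.71, 6.77, 9.56 and 13.6 in grain_PHY. PRDX4, the form of the endoplasmic reticulum, had its lowest value in grain_PHY 1 and otherwise overlapped between all groups (−0.22 ± 0.22, adjusted p = 0.41). The call of PRDX3 was lost without forage_PHY 1 or grain_PHY 1, and that of PRDX5 without the 7 libraries named for NFE2L2.

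In the thioredoxin system 3 of 5 genes fell, beside 13.8% of all genes and 37.2% of those averaging 10 CPM or more. TXN, the cytosolic thioredoxin, fell by 0.66 ± 0.24 on the log2 scale (edgeR adjusted p = 0.041) and ran from 61.3 to 156 CPM on forage (median 104) and 34 to 125 CPM on grain (median 55.1). TXN2, its mitochondrial counterpart, fell from 65.3 ± 14.5 to 46.3 ± 14.9 CPM (SD, n = 9 each; −0.51 ± 0.19, adjusted p = 0.047). SRXN1, sulfiredoxin, which repairs over-oxidised peroxiredoxins and is a well-known NRF2 target, fell from 7.88 ± 2.5 to 5.19 ± 1.48 CPM (−0.64 ± 0.22, adjusted p = 0.037). The reductases that recharge thioredoxin did not pass, TXNRD1 of the cytosol at −0.43 ± 0.19 (adjusted p = 0.08) and TXNRD2 of mitochondria at −0.34 ± 0.16 (adjusted p = 0.099). TXNRD1 ran from 52.1 to 125 CPM on forage (median 102) and 52.2 to 108 CPM on grain (median 76.4), and no grain library was below the lowest forage one. TXNRD2 ran from 6.7 to 11.3 CPM on forage (median 9.22) and 4.65 to 8.94 CPM on grain (median 6.87), with all 9 grain libraries below the forage median. Single libraries whose absence ended the call numbered 9 for SRXN1, 13 for TXN and 14 for TXN2. Forage_control 1, 4 and 5, forage_PHY 1, 2 and 3, grain_control 1 and 4 and grain_PHY 1 were among them for each gene. Forage_PHY 4, grain_control 3 and grain_PHY 2 and 3 were added for TXN and TXN2, and grain_control 2 for TXN2.

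Glutathione is built in 2 steps, by glutamate-cysteine ligase and then glutathione synthetase, and is recycled by glutathione reductase. In this class 2 of 4 genes fell, beside 13.8% of all genes and 37.2% of those averaging 10 CPM or more. GSS, the synthetase, had the smallest p of the 40 rows for diet. GSS stood at 48.4, 54.8, 31.7, 72.9 and 72.9 CPM in forage_control, 72.5, 67.6, 71.2 and 45.8 in forage_PHY, 23.9, 42.2, 28.4, 34.7 and 51.2 in grain_control and 21.4, 37, 45.3 and 39.9 in grain_PHY. It fell from 59.7 ± 15.1 to 36 ± 9.93 CPM (SD, n = 9 each; log2 −0.74 ± 0.19, edgeR adjusted p = 0.022). All 9 grain libraries were below the forage median. The reductase GSR fell too (−0.60 ± 0.20, adjusted p = 0.031) and ran from 109 to 238 CPM on forage (median 183) and 76.4 to 171 CPM on grain (median 121). The ligase has a catalytic subunit, GCLC, and a modifier subunit, GCLM, and neither passed. GCLC stood at 46, 25.4, 23.8, 33 and 21.5 CPM in forage_control, 24.1, 18.3, 23.1 and 29 in forage_PHY, 19.9, 57, 21.7, 20 and 53.4 in grain_control and 17.1, 35, 18.1 and 16.8 in grain_PHY. The GCLC values overlapped throughout, with grain_control 2 and 5 highest, and its diet difference was 0.04 ± 0.23 (adjusted p = 0.88). GCLM was at −0.54 ± 0.25 (adjusted p = 0.08), with 9.67 to 35.1 CPM on forage (median 29.8) and 7.98 to 31 CPM on grain (median 15.2). GSS lost its call only without grain_PHY 1, and GSR without any 1 of 9 libraries, the 7 named for NFE2L2 and also forage_PHY 3 and grain_PHY 2.

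Glutathione transferases couple glutathione to reactive compounds, and 4 of the 8 rows fell. The shares called lower were 13.8% of all genes and 37.2% of those averaging 10 CPM or more. GSTK1, a form of mitochondria and peroxisomes, was the clearest. GSTK1 stood at 39.2, 36, 36.9, 56.2 and 56.9 CPM in forage_control, 48.6, 50.9, 51.2 and 48 in forage_PHY, 17.9, 32.9, 38.9, 26.7 and 38.2 in grain_control and 15.6, 23.6, 34 and 41.2 in grain_PHY. Here 6 of 9 grain libraries lay below the lowest forage library, the mean went from 47.1 ± 7.94 to 29.9 ± 9.37 CPM (SD, n = 9 each) and the log2 fold change was −0.67 ± 0.19 (edgeR adjusted p = 0.022). Of the membrane-bound enzymes MGST1 (−0.56 ± 0.21, adjusted p = 0.045) and MGST2 (−0.58 ± 0.17, adjusted p = 0.025) fell, and MGST3 was at −0.34 ± 0.20 (adjusted p = 0.16). MGST1 ran from 90.2 to 179.7 CPM on forage (median 134) and 40.9 to 132 CPM on grain (median 92.3), and all 9 grain libraries were below the forage median. MGST2 ran from 8.8 to 21.8 CPM on forage (median 14) and 7.26 to 14.8 CPM on grain (median 10.8). The MGST3 libraries held 127 to 232 CPM on forage (median 202) and 92.7 to 248 CPM on grain (median 143), with 7 of 9 grain libraries below the forage median. GSTP1, the pi-class enzyme typical of squamous epithelia, has a pair of rows that may share reads. The row ENSBTAG00000051210 ran from 71.1 to 149.7 CPM on forage (median 105) and 38.7 to 105 CPM on grain (median 60.5) and fell (−0.64 ± 0.21, adjusted p = 0.029). The other, ENSBTAG00000003548, held 1.19 to 3.67 CPM on forage (median 2.87) and 0.835 to 6.07 CPM on grain (median 1.45) and did not pass (−0.40 ± 0.37, adjusted p = 0.37). GSTO1, the omega-class enzyme, spread 6.03-fold over the 18 libraries and was at −0.32 ± 0.37 (adjusted p = 0.47), with 15.8 to 95.2 CPM on forage (median 38.8) and 21.6 to 81.7 CPM on grain (median 38.7). GSTM3, of the mu class, was at −0.28 ± 0.24 (adjusted p = 0.32). GSTK1 and MGST2 lost their calls only without grain_PHY 1. GSTP1 lost its call also without forage_control 5, forage_PHY 1 or 2, or grain_control 1 or 4, and MGST1 without any of the 13 libraries named for CAT.

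Iron storage and haem breakdown held the largest falls. Here 3 of 4 genes were called lower, beside 13.8% of all genes and 37.2% of those averaging 10 CPM or more. HMOX2, the haem oxygenase that most tissues make at all times, fell most. HMOX2 stood at 121, 114, 78.5, 164 and 201 CPM in forage_control, 157, 159, 136 and 138 in forage_PHY, 33.7, 85.8, 69.6, 76.5 and 131 in grain_control and 27.1, 59.1, 81.8 and 110.3 in grain_PHY. Its mean went from 141 ± 35 to 75 ± 33.3 CPM (SD, n = 9 each), 1.9-fold lower (log2 −0.93 ± 0.25, edgeR adjusted p = 0.022), all 9 grain libraries were below the forage median, and grain_control 1 and grain_PHY 1 were lowest. HMOX1, the form induced by oxidants and haem, did not pass and had the other sign (0.31 ± 0.29, adjusted p = 0.37), with 1.8 to 5.1 CPM on forage (median 3.35) and 2.27 to 8.95 CPM on grain (median 3.21). The ferritin heavy chain FTH1, which oxidises iron for storage, fell by 0.91 ± 0.29 on the log2 scale (adjusted p = 0.027) and ran from 210.3 to 886 CPM on forage (median 586) and 143 to 569 CPM on grain (median 287). The light chain FTL fell with it. FTL stood at 41.2, 48.2, 31.9, 63.8 and 57.7 CPM in forage_control, 61.7, 59.7, 58 and 57.1 in forage_PHY, 15.8, 44.3, 26.9, 32 and 57.4 in grain_control and 21, 25.1, 39.1 and 31.2 in grain_PHY. The mean of FTL went from 53.2 ± 10.7 to 32.5 ± 12.7 CPM (−0.74 ± 0.20, adjusted p = 0.022), and grain_control 5 alone among grain libraries came near the forage median. Processed copies of ferritin genes exist in mammalian genomes, and how the authors counted reads shared with them is not given. HMOX2 and FTL lost their calls only without grain_PHY 1, and FTH1 without that library, forage_control 5, forage_PHY 1 or forage_PHY 2.

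Of the pentose phosphate enzymes TKT fell and PGD did not pass, and SQSTM1 fell. The shares of falls were 13.8% among all genes and 37.2% among those averaging 10 CPM or more. TKT is transketolase of the pentose phosphate pathway. TKT stood at 159, 110.0, 92.3, 160.4 and 207 CPM in forage_control, 198, 170.0, 169.6 and 119.6 in forage_PHY, 59.1, 124, 79.8, 80 and 159 in grain_control and 40.6, 98.2, 91.5 and 97.9 in grain_PHY. It fell from 154 ± 39.2 to 92.2 ± 34.5 CPM (SD, n = 9 each; log2 −0.77 ± 0.22, edgeR adjusted p = 0.023). SQSTM1, the autophagy receptor p62 that binds KEAP1, fell by 0.67 ± 0.21 on the log2 scale (adjusted p = 0.026) and ran from 58.5 to 142 CPM on forage (median 97.2) and 34.7 to 96.8 CPM on grain (median 59.3). PGD, which makes NADPH, was at −0.18 ± 0.21 (adjusted p = 0.46), with 39.1 to 78.5 CPM on forage (median 66.2) and 33 to 91 CPM on grain (median 51.9). Both calls were lost without forage_PHY 1 or grain_PHY 1.

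Within each arm alone no gene of the transcriptome passed edgeR's test, so 0 of 40 rows were called in control cows (0% of all genes, smallest adjusted p 0.43, 2518 genes with an unadjusted p under 0.05) and 0 of 40 in PHY cows (0% of all genes, smallest adjusted p 0.07, 8820 genes unadjusted). The median log2 fold change of the 40 rows was −0.39 in control cows and −0.71 in PHY cows. Total reads ran from 18655841 to 34471682 in forage_PHY and from 3953060 to 15474334 in grain_PHY, with no overlap. Those of control cows overlapped, at 15808999 to 33935756 in forage_control and 5433497 to 23949058 in grain_control. The part of depth in these medians and in the calls for PHY cows below was not tested. In control cows 7 rows had an unadjusted p under 0.05, GSS at −0.64 ± 0.26, HMOX2 at −0.77 ± 0.33, GSTK1 at −0.54 ± 0.25 and GPX8 at 1.30 ± 0.60 having the smallest. In PHY cows there were 21, with FTL at −1.02 ± 0.30, TKT at −1.0 ± 0.33, HMOX2 at −1.09 ± 0.38 and GSS at −0.84 ± 0.29 in front (edgeR adjusted p = 0.07 for FTL). For the PHY cows DESeq2 called 9 of the rows lower, limma voom 24, and edgeR fitted to the PHY libraries alone 7. Over all genes, of which 22202 passed the filter, DESeq2 called 5275 in either direction and limma voom 7924. Calls in PHY cows were thus not limited to these rows. The count over all genes for the fit to the PHY libraries alone is given with the processing below. With edgeR and all groups FTL was called without forage_control 5 (adjusted p = 0.049) and without grain_control 1 (adjusted p = 0.0498), 1 row each time. In control cows these alternatives called 0.

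The difference between the arms in their diet response was tested directly and called 0 of 40 rows (0% of all genes, smallest adjusted p 0.95, 442 genes with an unadjusted p under 0.05). Of the 40 estimates 37 were negative, that is, the log2 change on grain was lower in PHY cows, beside 48.7% of all genes. Of 15 epithelial markers 12 were negative, and of 20 leukocyte markers 8. The rows share their libraries, so these signs are not independent, and the part of depth and cell makeup was not tested. PRDX4 had the smallest p, with a log2 fold change of 0.22 ± 0.29 in control cows and −0.65 ± 0.33 in PHY cows and a difference of −0.87 ± 0.45 (95% interval −1.78 to 0.05, edgeR adjusted p = 0.95). FTL (−0.56 ± 0.40), PRDX2 (−0.52 ± 0.42) and CAT (−0.49 ± 0.40) followed. The median interval reached 0.89 to either side on the log2 scale, and 6 of 40 lay within 2-fold either way. For the other 34 rows a 2-fold difference in response lay inside the interval.

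The next comparison set PHY cows against control cows on the same diet. No row was called on forage, on grain or over both diets, in each case 0 of 40 beside 0% of all genes (356, 571 and 405 genes with an unadjusted p under 0.05, and smallest adjusted p 1.0, 0.999 and 0.348). DESeq2 and limma voom also called 0 of the 40. In 0 of 40 rows did the 4 PHY libraries all lie on one side of the 5 control libraries on forage (0.554% of all genes) and in 0 on grain (0.716%). Averaged over both diets 38 of the 40 intervals lay within 2-fold either way, and the median interval reached 0.44 to either side on the log2 scale. On forage 29 did and on grain 30, and the median interval reached 0.63 to either side on each. These intervals do not show that the arms were alike. Those over both diets treat both libraries of a cow as independent, so they may be too narrow.

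On forage 33 of the 40 estimates were above 0 (median log2 difference 0.17), and on grain 34 were below 0 (median −0.19), with the arms of each diet overlapping in every row. Over all genes 52.9% were below 0 on forage and 49.1% on grain. Epithelial markers leaned the same way, with 3 of 15 below 0 on forage and 10 of 15 on grain, and the part of cell makeup in this was not tested. Since the rows share their libraries and rise and fall together, the 40 signs are not independent.

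**Figure D4:**
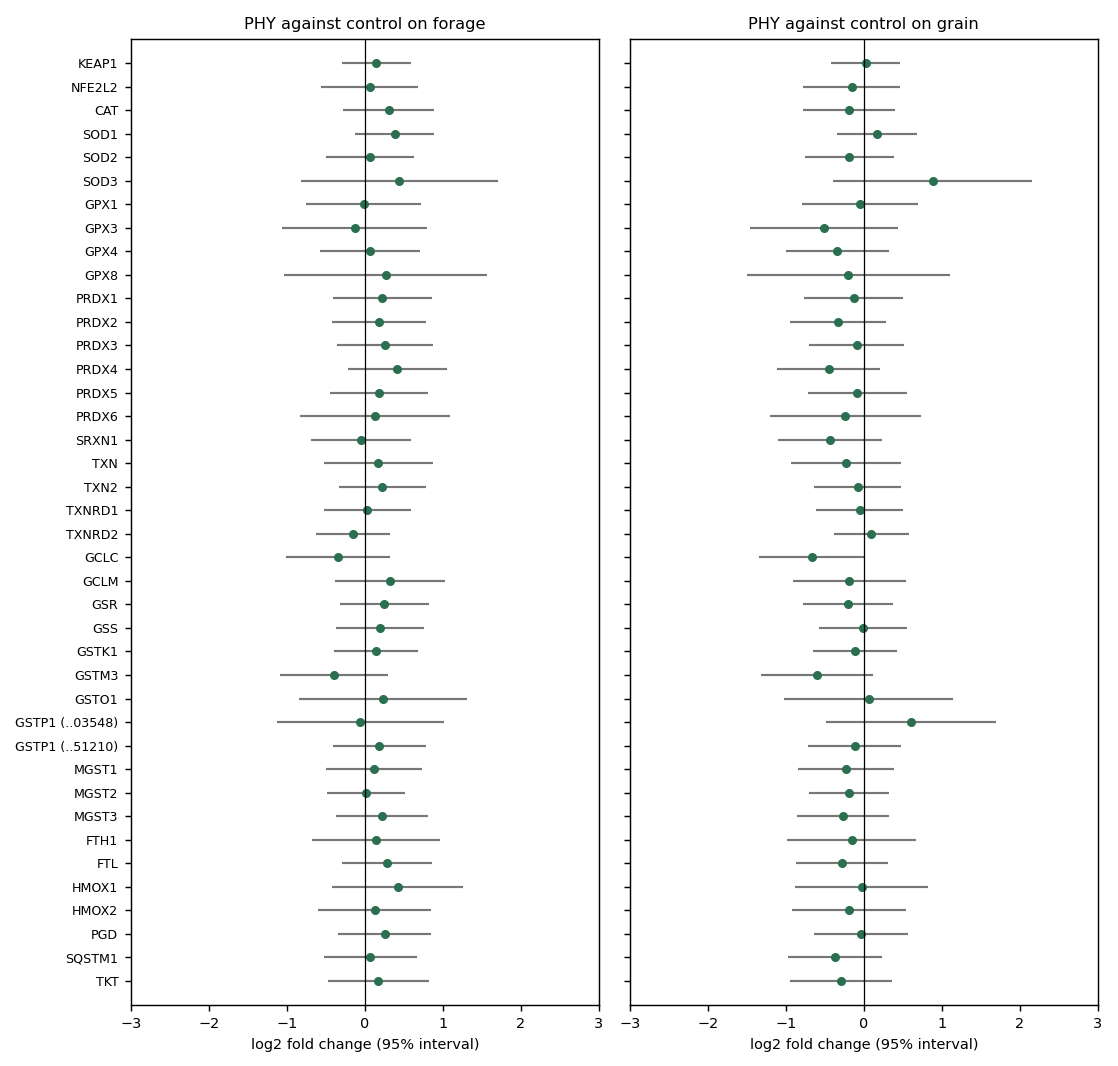
Log2 fold change of PHY against control cows on forage (left) and on grain (right) for each of the 40 rows, with 95% intervals. All 40 intervals in each panel span 0, the points lean to the right on forage and to the left on grain.

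GCLC, the catalytic subunit that limits glutathione synthesis, had the smallest p of the 40 rows over both diets, at −0.50 ± 0.23 in PHY against control cows (95% interval −0.98 to −0.03, unadjusted p = 0.039, edgeR adjusted p = 1.0). The group means were 29.9 ± 9.94 CPM in forage_control, 23.6 ± 4.39 in forage_PHY, 34.4 ± 19.1 in grain_control and 21.8 ± 8.83 in grain_PHY. On grain its difference was −0.67 ± 0.33 (interval −1.34 to 0.01), and grain_PHY 2 at 35 CPM stood above the other 3 PHY libraries. GSTM3 was next. GSTM3 stood at 10.5, 4.12, 11.5, 7.65 and 15 CPM in forage_control, 8.02, 10.7, 6.64 and 4.24 in forage_PHY, 4.59, 10.5, 9.74, 5.87 and 12 in grain_control and 4.22, 8.72, 4.75 and 5.01 in grain_PHY. Its difference was −0.50 ± 0.24 over both diets (unadjusted p = 0.0503, edgeR adjusted p = 1.0), and the arms overlapped on each diet. SOD1 was at 0.28 ± 0.17 (−0.08 to 0.64) and SOD3 at 0.66 ± 0.44 (−0.24 to 1.56). PRDX4 was at 0.42 ± 0.31 on forage and −0.45 ± 0.32 on grain. For NFE2L2 the difference over both diets was −0.05 ± 0.21 (−0.49 to 0.39) and for KEAP1 0.09 ± 0.15 (−0.23 to 0.40). Between arms over both diets the interval was −0.59 to 0.58 for FTH1 and −0.41 to 0.42 for FTL.

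How alike the rows behaved was described by the correlation of their log2(CPM + 1) with that of NFE2L2 across the 18 libraries. GSTK1 (r = 0.95), HMOX2 (0.94), CAT (0.93), PRDX5 (0.92), TKT (0.92) and the GSTP1 row ENSBTAG00000051210 (0.92) followed NFE2L2 most closely. The sparse GPX8 (−0.64), HMOX1 (−0.15), SOD3 (0.12) and GPX3 (0.26) did not follow it, nor did GSTO1 (0.28), GCLC (0.3) and TXNRD2 (0.34). The other GSTP1 row, the sparse ENSBTAG00000003548, did not either (−0.15). A high value is common in these libraries. Over 7321 named genes averaging 10 CPM or more the median r with NFE2L2 was 0.79, with quartiles of 0.6 and 0.88, and NFE2L2 itself had an r of 0.92 with the log2 total reads of the library. The genes most like it were OTUD3 (0.986), NCOR1 (0.983) and PRKAR1A (0.981). The points share their libraries, and with them depth and tissue makeup, whose part in these correlations was not tested.

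Ratios of reads within a library are free of the scaling between libraries, and pairs of related genes were compared in this way after their values had been seen, with no test. The ratio of HMOX1 to HMOX2 was 0.0149 to 0.0251 in forage_control, 0.0227 to 0.0324 in forage_PHY, 0.026 to 0.265 in grain_control and 0.0276 to 0.104 in grain_PHY. The grain and forage_PHY ranges overlapped, and grain_control 1 was highest. HMOX1 averaged 3.87 CPM, in the range of 1 to 10 CPM where all genes had a median log2 fold change of 0.62. HMOX2 averaged 108 CPM, in the range of 100 to 1000 CPM where that median was −0.57. The part of level in this ratio was not tested. KEAP1 to NFE2L2 stood at 0.178 to 0.225 in forage_control and 0.212 to 0.22 in forage_PHY, and at 0.182 to 0.354 in grain_control and 0.165 to 0.475 in grain_PHY. Its highest values were in the shallow libraries grain_PHY 1 and grain_control 1. GCLC to GCLM spread widely in every group, from 0.636 to 2.46 in forage_control, 0.522 to 1.2 in forage_PHY, 1.04 to 2.74 in grain_control and 0.62 to 2.86 in grain_PHY. FTH1 to FTL kept medians of 11.6, 10.1, 8.99 and 9.98 in these groups.

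**Figure D5:**
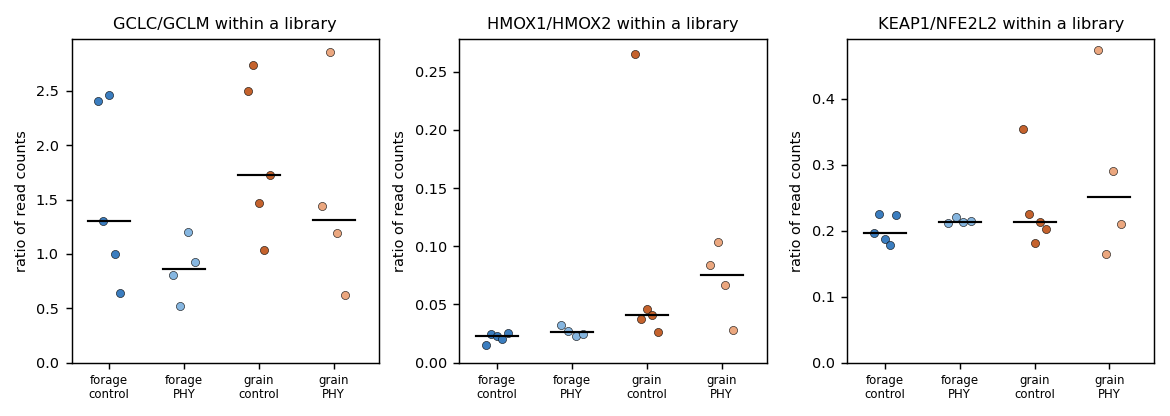
Ratio of read counts of 3 gene pairs within each library (vertical axes, from 0), by group, with the group median as a bar. HMOX1 to HMOX2 lies between 0.026 and 0.265 on grain and between 0.0149 and 0.0324 on forage, while GCLC to GCLM overlaps between all groups. HMOX1 and HMOX2 lie in different ranges of level, and the diet difference of all genes went with level.

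Other genes of the same pathways were followed from lists by role, and their counts stand beside 13.8% of all genes called lower and 18.1% higher (37.2% and 1.54% of genes averaging 10 CPM or more). Of 10 NRF2 partners 3 fell and 1 rose on grain (median log2 −0.29). MAFG (−0.71 ± 0.21), a small protein that pairs with NRF2 on DNA, RBX1 (−0.61 ± 0.19) of the ligase that degrades NRF2, and the related factor NFE2L1 (−0.48 ± 0.18) were the falls, and BACH2 (1.62 ± 0.49) the rise, all named after their values were seen. Of 18 further NRF2 targets 6 fell and 1 rose (median −0.39). The rise was in ABCC2, an exporter of glutathione conjugates, from 3.46 ± 2.64 to 9.89 ± 5.48 CPM (1.61 ± 0.42). NQO1, the quinone reductase often used to read NRF2 activity, was at −0.46 ± 0.25 (adjusted p = 0.13), and the cystine importer SLC7A11 at 0.83 ± 0.39 (adjusted p = 0.093).

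Of 45 other glutathione, thioredoxin and selenoprotein genes tested 10 fell and 3 rose (median −0.32). The methionine sulfoxide reductase MSRB1 fell from 18.6 ± 4.32 to 12.2 ± 2.19 CPM (SD, n = 9 each; −0.62 ± 0.16, edgeR adjusted p = 0.021), the smallest p among the listed genes. TXNIP, which binds thioredoxin, fell as well (−0.55 ± 0.20, adjusted p = 0.041). The rises, named after their values were seen, were GSTA3 (2.18 ± 0.66), GSTO2 (1.72 ± 0.57) and GGT7 (1.31 ± 0.38). Of 23 iron-handling genes tested 3 fell and 5 rose (median −0.09), shares of calls near those of all genes, 13.8% lower and 18.1% higher. The falls were ACO1 (−0.58 ± 0.21), the iron sensor IRP1, the ferritin receptor NCOA4 (−0.58 ± 0.20) and the iron chaperone PCBP1 (−0.58 ± 0.22). The rises were CP (1.51 ± 0.39), the iron oxidase ceruloplasmin, HEPH (1.15 ± 0.34), LTF (1.28 ± 0.42), TF (1.66 ± 0.47) and SLC11A1 (1.80 ± 0.56), and all but CP were named after their values were seen. CP averaged 3.58 ± 2.05 CPM on forage and 9.83 ± 6.25 on grain, in the range of level where the median of all genes was 0.62. The importer TFRC was at −0.39 ± 0.21 (adjusted p = 0.14) and the exporter SLC40A1 at −0.25 ± 0.20 (adjusted p = 0.28). None of these genes differed between the arms at an adjusted p under 0.05. The smallest p over both diets was that of CCS, the copper chaperone of SOD1, at 0.41 ± 0.17 in PHY against control cows (unadjusted p = 0.023, edgeR adjusted p = 1.0), and SLC40A1 was at −0.47 ± 0.20 (unadjusted p = 0.027).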

How the data were processed

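Rumen papillae RNA of 18 libraries was extracted as total RNA and made into stranded total RNA libraries, per the labels' protocols. The deposited table holds whole-number read counts per Ensembl gene with a gene name. Per the submitters' processing notes, bcl2fastq 2.20 and the build bosTau9 were used. Aligner, counter, annotation and strand use were not given in the sources used here, so overlapping, antisense and near-identical genes may share reads. The authors' DESeq2-normalized table was not used. Differences were tested with edgeR 4.0.16 (R 4.3.3), robust quasi-likelihood F test, on TMM-scaled counts. Of 27270 genes filterByExpr kept 22202 by group. All 18 libraries entered a single fit with 1 mean per group, which was tested on simulated data. It recovered 51.6% of simulated 2-fold and 67.4% of 4-fold changes between diets. For PHY against control on forage it recovered 20.2% and 47.9%. Apart from these changes the simulated libraries shared the same makeup, unlike the real ones. Calls are genes with an adjusted p (Benjamini-Hochberg, all genes tested) under 0.05. Intervals are 95%, ± in a fold change is its SE, and CPM uses edgeR's effective library sizes (olfactory receptor CPM uses total reads). Both libraries of a cow count as independent in the diet comparisons, in their difference between arms and in PHY against control over both diets. The p-values measure the spread between libraries. Levels are not compared between genes because transcript lengths were not used. Alternatives were DESeq2's size factors, no filter, a minimum of 30 CPM, DESeq2 1.42.0, limma 3.58.1 voom with quality weights, only the groups compared, an olfactory receptor covariate, thinning, leaving out the 3 shallowest libraries, and leaving out each library in turn. Every library's value is given for NFE2L2, KEAP1 and the 4 genes of smallest p in each comparison. Of the further pathway genes the rule names the 6 of smallest p in a comparison and 8 preset ones, and only some of these are printed. Some listed genes are not reported here. The members and lists were chosen with earlier results of these data known.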

Additional observations from a re-analysis of the deposited data

Results flagged for a closer look

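A library far from the others of its group was looked for in each of the 40 rows and 4 groups, with Dixon's 95% critical value on CPM. Of 160 such groups 7 had one, and chance flags about 1 in 20. TKT at 40.6 CPM and SRXN1 at 2.49 CPM were low in grain_PHY 1, where the other 3 libraries held 91.5 to 98.2 and 4.82 to 5.1 CPM. HMOX1 at 8.95 CPM was high in grain_control 1 beside 3.15 to 3.41 in the other 4. Both are among the 3 shallowest libraries. GCLC at 35 CPM in grain_PHY 2 compared with 16.8 to 18.1 in the rest of that group, and GPX3 at 6.09 CPM in grain_PHY 4 with 2.88 to 3.43. In forage_PHY 1 PRDX5 stood at 267.7 CPM beside 239 to 241 and TXN2 at 80.05 CPM beside 67.7 to 68.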

How the results depend on the processing

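For diet over both arms the 21 rows called lower by edgeR became 11 after thinning to the lowest total (3868 genes called in all), and 0 with only genes of at least 30 CPM tested (51 in all), with the olfactory receptor covariate (0 in all; 1032 with an unadjusted p under 0.05) and without the 3 libraries of lowest total (0 in all; 4136 unadjusted). With the covariate the log2 fold changes that changed sign were 0.0064 for PRDX5, 0.0069 for GPX1, 0.034 for NFE2L2, 0.065 for MGST1, 0.0705 for TXN, 0.071 for TXN2, 0.075 for CAT and 0.155 for GPX4. The cause of these changes was not tested. One row, GPX8, was called higher with DESeq2 and with limma voom, 1 each against 0. DESeq2's size factors in edgeR called 16 rows lower, no low-count filter 19, DESeq2 20 and voom 27. Counts over all genes for these settings are not reported here. Leaving out single libraries moved the lower count between 0 (without grain_PHY 1) and 24 and the higher count between 0 and 1. It moved the calls over all genes, 7091 with every library, between 1 and 9587. In PHY cows alone the counts of rows and of all genes, each 0 in edgeR, were 9 and 5275 with DESeq2, 24 and 7924 with voom and 7 and 4353 with only those groups fitted. They ran from 0 to 1 and from 0 to 1677 without single libraries. Between arms over both diets DESeq2 called 5 genes and voom 2, none of the 40 rows. Fitting only the groups compared gives the same fit for comparisons that use all groups and was not repeated. No paired analysis was possible because no label names the cow of a library, and the library numbers only follow the order of deposit.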

Other observations

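Of 21 genes of oxidant-producing enzymes tested 8 were called higher on grain and 1 lower, with a median log2 fold change of 0.52. Of all genes 18.1% were called higher and 13.8% lower, and of those of 1 to 10 CPM 2889 of 9598 were called higher. MPO, the peroxidase of neutrophils, averaged 1.18 ± 0.926 CPM on forage and 4.04 ± 2.77 on grain (SD, n = 9 each; 1.85 ± 0.48). NOX4 averaged 0.928 ± 0.713 and 3.09 ± 2.16 CPM (1.82 ± 0.49, each edgeR adjusted p = 0.022). DUOX2, the dual oxidase of epithelial surfaces, was the gene called lower, from 180.1 ± 66.1 to 110.4 ± 33.7 CPM (−0.68 ± 0.22, adjusted p = 0.028). The genes called higher are of low level, where all genes of 1 to 10 CPM had a median of 0.62. Of 20 leukocyte markers 6 were called higher and 0 lower, and 7 had a negative log2 fold change. The part of leukocytes in these values was not tested.

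Of 10 rows of metallothioneins and copper genes 2 fell and 2 rose on grain, beside 13.8% of all genes lower and 18.1% higher, so the shares are near the background. MT2A, which binds zinc and copper, fell from 86.9 ± 17.5 to 54 ± 25.8 CPM (SD, n = 9 each; −0.70 ± 0.26, edgeR adjusted p = 0.044), and so did 1 of 2 rows named MT1E (−0.69 ± 0.24), which may share reads. MT4 (2.33 ± 0.72) and the copper exporter ATP7B (0.45 ± 0.16), named after their values were seen, rose. The MT1E row had the smallest p of the listed genes for the difference between the arms in diet response, −1.24 ± 0.48 (unadjusted p = 0.017, edgeR adjusted p = 0.95). Its diet difference was −0.07 ± 0.32 in control and −1.31 ± 0.37 in PHY cows.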
